A study of Ictidomys tridecemlineatus with 15 samples.

Results

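The genes described here are 10 genes of autophagy (Ulk1, Becn1, Sqstm1, Map1lc3b, Gabarapl1, Atg5, Atg7, Atg2a, Wipi1 and Bnip3), chosen by name, whose transcription was followed in the liver of the 13-lined ground squirrel across a season of hibernation. A gene was matched when its symbol, with case ignored, equalled one of the names that a transcription unit carries in the table of counts. Of the 10 genes, 8 had a unit among the 6324 in the table. Atg5, Atg7, Gabarapl1, Wipi1 and Bnip3 each had a unit of their own, Ulk1, Sqstm1 and Atg2a lay on units merged with other genes, and Becn1 and Map1lc3b had none and are not described further.

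Autophagy wraps a portion of cytoplasm in a double membrane, the autophagosome, and delivers it to the lysosome for breakdown. A kinase complex around Ulk1 starts the process, a lipid kinase complex around Becn1 marks the growing membrane, lipid carriers such as Atg2a expand it with Wipi1 bound to its lipid, and a pair of ubiquitin-like systems attach proteins of the ATG8 family, among them Gabarapl1, to it. Receptors such as Sqstm1 and Bnip3 tie the cargo to ATG8, and in liver the pathway is known for recycling protein, lipid, glycogen and mitochondria during fasting.

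In global run-on sequencing (GRO-seq), polymerases that were engaged on DNA when the nuclei were isolated go on making RNA with a label. The reads thus report engaged polymerases, called transcription below, and not the amount of RNA or of autophagy. A higher value is a larger share of these polymerases and does not measure how fast RNA was made in the animal. The libraries came from the livers of laboratory-housed female squirrels, each a separate animal, with 3 in SA (summer active, homeothermic, before hibernation), 3 in IBA (warm between torpor bouts), 3 in Ent (cooling on the way into torpor), 3 in ET (early in a torpor bout) and 2 in LT (late in a bout, replicates 1 and 3). SA and IBA are called warm and ET and LT torpid below. The study's authors propose that in torpor polymerases neither start nor terminate but still elongate, far more slowly. They propose that transcription thereby often fails to terminate and can run on into a downstream gene. Reads on a unit in torpid livers may therefore include polymerases from an upstream gene, and the part of this in the results below was not tested. Replicate 2 of LT was removed by the study's authors and was not used here. The labels name no genetic change and no drug for any animal, and the states were assigned from body temperature and time. The ET animals all came from a season that no other state shares, so season and state cannot be told apart in comparisons with ET. IBA and LT each came from a single season of their own, and SA and Ent mixed these last seasons.

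Total counts on the units ran from 3713883 to 8884763 a library. Values are CPM, the counts of a unit per 1e6 counts of its library, scaled to a library size adjusted by TMM, a method that assumes that most units do not change, so that a change shared by all genes would not be seen. Differences come from edgeR's quasi-likelihood test on all 6324 units and 14 libraries and its p-values with Benjamini-Hochberg adjustment over the whole table. The threshold was an adjusted p of 0.001, and calls at 0.05 are given beside it. The counts behind the values of the 8 autophagy genes ran from 123 for Wipi1 in IBA replicate 1 to 6165 for the Ulk1 unit in ET replicate 1.

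The tissue label was set against marker genes. Of 9 hepatocyte markers 8 had a unit, 6 of them a unit of their own, while Alb and Fga lay on merged units. Their summed transcription was 15231 to 26123 CPM in SA, 14084 to 19838 in IBA, 10129 to 13140 in Ent, 4330 to 8546 in ET and 5684 to 9222 in LT. It was lower in every torpid library than in every warm one, and 7 of the 8 fell from warm to torpid at 0.05, 4 of them at 0.001. Units were found for 1 of 7 markers of Kupffer and other immune cells, 3 of 6 of sinusoidal endothelium, 0 of 6 of stellate cells and 1 of 5 of cholangiocytes. The summed endothelial markers were 186 to 241 CPM in SA, 199 to 228 in IBA, 203 to 241 in Ent, 124 to 203 in ET and 135 to 148 in LT, the immune marker 374 to 607 in the warm libraries and 236 to 523 in the torpid ones, and the cholangiocyte marker 16.5 to 41.0 in the warm libraries and 7.07 to 18.1 in the torpid ones. The immune marker, Cd68, lay on a merged unit, so its reads cannot be given to Cd68 alone. The part of these shifts in the results below was not tested. In such bulk tissue, fewer cells of a type and less RNA per cell cannot be told apart.

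In torpid livers, transcription was higher for Bnip3 (2.65-fold) and Wipi1 (2.01-fold), and at the wider threshold also for the units that hold Sqstm1 (1.68-fold) and Ulk1 (1.67-fold) and for Atg5 (1.34-fold), whereas the unit with Atg2a fell 1.59-fold. Atg7, the enzyme that activates both ubiquitin-like systems, and Gabarapl1 passed neither threshold. Of the 8 genes, 2 were called at 0.001 and 6 at 0.05 in this comparison, against 36.3% and 64.5% of all units. The 5 torpid and 6 warm libraries did not overlap for 3 of the 8 (Bnip3, Wipi1 and Atg5), or 37.5%, where 40.5% of all units did not overlap. Among the 5 states together, 0 of 8 passed 0.001 by edgeR, where 25.5% of all units did, 3 by DESeq2, where 50.0% did, and 0 by limma-voom, where 23.8% did. Bnip3, Wipi1 and the Sqstm1 unit, 3 of 8, passed 0.05, where 62.0% of all units did, and the same number passed an unadjusted p of 0.05, where 66.9% did.

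**Figure D1:**
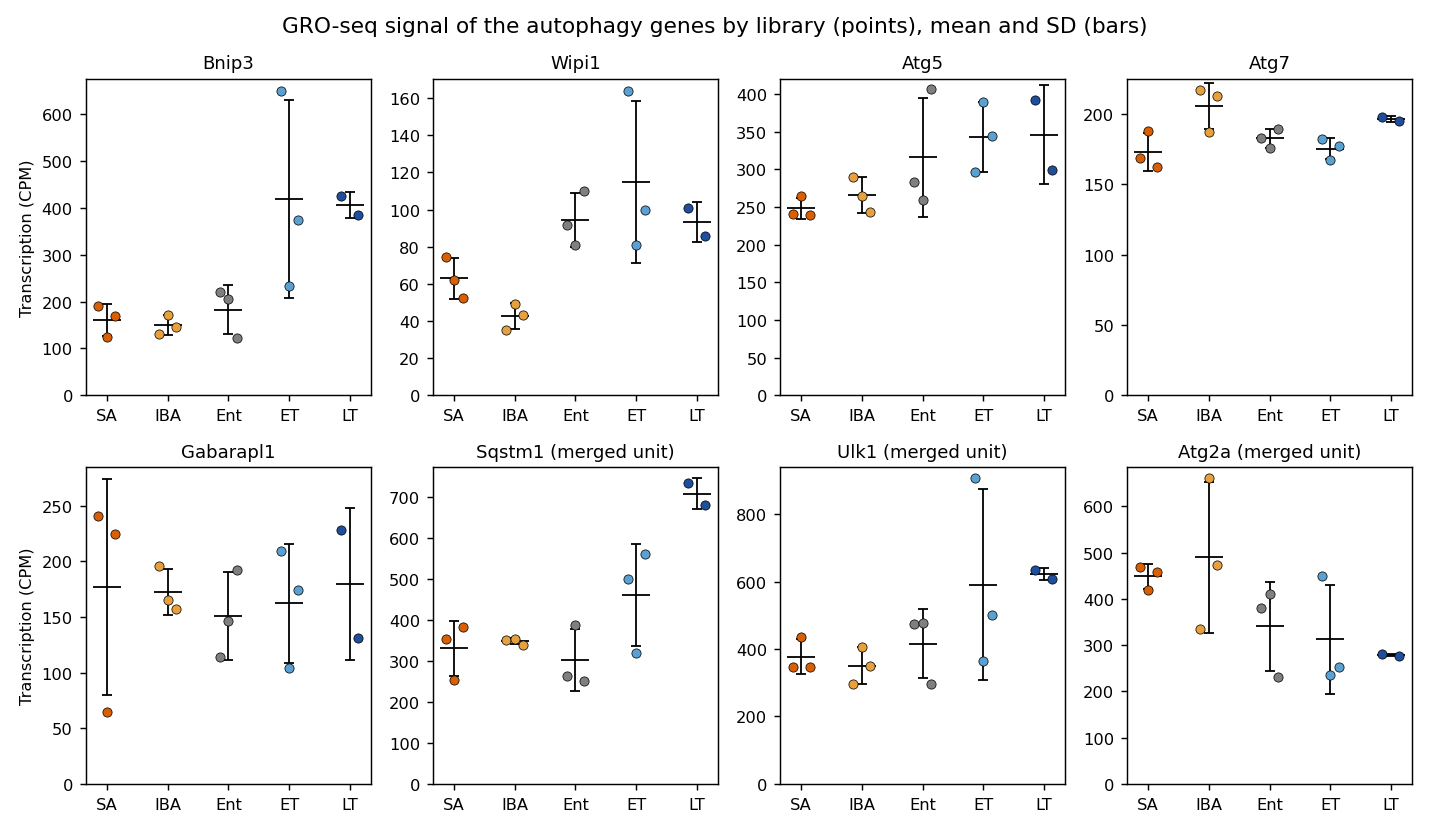
Transcription (CPM, linear axes from 0) of the 8 autophagy genes in each of the 14 libraries (points) by state, with the mean and SD of each state (bars). Bnip3 lies at 124 to 190 CPM in the warm libraries and at 233 to 650 in the torpid ones, whereas Atg7 stays between 162 and 217 in every library.

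Initiation is represented by Ulk1, the kinase that starts autophagosome formation. Its unit runs over Itri2:122423491-122560328 on the minus strand (coordinates here are those of the HiC_Itri_2 build in the deposited table) and also carries Ep400, SNORA49, Pus1 and an unnamed gene, so its reads cannot be given to Ulk1 alone. It read 347, 437 and 347 CPM in SA, 295, 407 and 351 in IBA, 475, 477 and 297 in Ent, 908, 364 and 502 in ET and 635 and 609 in LT. ET replicate 1 was the highest library and ET replicate 2 lay among the warm ones, so the groups overlapped. The torpid level was 0.74 ± 0.21 (SE) above the warm level on the log2 scale, with an adjusted p of 0.0088. Without ET replicate 1 the difference was 0.51, with an adjusted p of 0.0149. The nearest unit upstream on the same strand, Sfswap, ended 39.9 kb before it and rose by 0.72 (adjusted p = 0.00053).

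In torpid against warm livers, 4 of 4 units of the initiation kinase complex passed 0.05, where 64.5% of all units did, and 0 passed 0.001 by edgeR, where 36.3% did. These shares of all units are also the background of the group counts that follow. Atg13, a regulatory subunit, rose by 0.52 ± 0.12 (SE) on the log2 scale (adjusted p = 0.0017), and Ulk2, the close relative of Ulk1, fell by 0.51 ± 0.14 (adjusted p = 0.0054). Rb1cc1, the scaffold of the complex, which is named here after its value was seen, rose by 0.55 ± 0.17 (adjusted p = 0.0119).

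Becn1 had no unit, and its lipid kinase complex is described by its other genes. Of 7 units of this group, 1 was called at 0.001 and 3 at 0.05 between torpid and warm livers, 1 higher and 2 lower. Rubcn, which encodes Rubicon, an inhibitor of the complex, read 45.8, 50.9 and 46.6 CPM in SA, 48.9, 43.1 and 53.8 in IBA, 28.8, 36.0 and 32.9 in Ent, 16.9, 20.8 and 25.1 in ET and 19.8 and 23.1 in LT. The warm, Ent and torpid libraries formed 3 ranges that did not overlap, and the torpid level was 2.27-fold lower than the warm one (log2 fold change -1.18 ± 0.13 SE, adjusted p = 7.6e-06). Atg14, which directs the complex to the forming autophagosome, rose by 0.57 ± 0.16 at 0.05 (adjusted p = 0.0085). The unit that merges Uvrag with the triglyceride synthase gene Dgat2 fell by 0.65 ± 0.21 at 0.05 (adjusted p = 0.0151). Its means were 1816 CPM in SA, 716 in IBA, 743 in Ent, 666 in ET and 790 in LT. The ET and LT means thus lay below that of SA and near that of IBA. From LT to IBA the log2 difference of this unit was -0.14 (adjusted p = 0.724).

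Wipi1, which binds the lipid made by that complex, lies at Itri7:11382955-11411762 on the plus strand. It read 74.2, 62.2 and 52.3 CPM in SA, 35.0, 49.1 and 43.4 in IBA, 91.9, 80.9 and 110 in Ent, 164, 81.1 and 99.6 in ET and 101 and 85.7 in LT. Every Ent, ET and LT library lay above every SA and IBA library. The torpid level was 2.01-fold the warm one, a log2 difference of 1.0 ± 0.18 (SE, 95% interval 0.61 to 1.40, adjusted p = 0.00037). That call at 0.001 was lost without SA replicate 3, IBA replicate 1, IBA replicate 3, LT replicate 1 or LT replicate 3, with differences of 0.94 to 1.06 and adjusted p of 0.0012 to 0.0026. It rose already between IBA and Ent, by 1.15 ± 0.25 on the log2 scale (adjusted p = 0.0104, past 0.05 only), and the mean of Ent lay 86.4% of the way from the warm to the torpid mean of log2 CPM. Between Ent and ET its log2 difference was 0.29 (95% interval -0.24 to 0.81, adjusted p = 0.397). The nearest unit upstream on the same strand, Fam20a, ended 45.1 kb before Wipi1 and rose by 1.04 from warm to torpid (adjusted p = 0.00026).

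Atg2a, whose product carries lipid into the growing membrane, shares its unit (Itri3:7976066-8030835, plus strand) with Ehd1 and a microRNA host gene, MIR194-2HG. The unit read 469, 419 and 458 CPM in SA, 336, 661 and 474 in IBA, 381, 411 and 231 in Ent, 449, 235 and 253 in ET and 281 and 277 in LT. ET replicate 1 lay among the SA libraries, and the other 4 torpid libraries lay below all 6 warm ones. The unit fell by 0.67 ± 0.22 (SE) on the log2 scale from warm to torpid (adjusted p = 0.0169), past 0.05 only. Without either LT library the same difference had an adjusted p of 0.0522 (without replicate 1) or 0.0529 (without replicate 3).

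Of 9 units for lipid transfer, lipid binding and scramblases, 5 were called at 0.001 between torpid and warm livers (3 higher, 2 lower) and 7 at 0.05 (4 higher, 3 lower). The unit with Tmem41b, a lipid scramblase, merged with an unnamed gene, rose 3.45-fold, from 68.1 to 143 CPM in the warm libraries to 277 to 401 in the torpid ones. A merged unit with Wipi2 rose by 0.63 on the log2 scale (adjusted p = 0.00087). The unit of Wdr45, a relative of Wipi1 merged with Praf2, fell by 1.10 (adjusted p = 0.00017), and Zfyve1, whose product marks the membrane where autophagosomes form, fell by 1.01 (adjusted p = 7.2e-06). The units with Wipi2 and Wdr45 thus moved in opposite directions, but each holds a further gene, so this cannot be given to the family of Wipi1. Wdr45b, a relative with a unit of its own, is named here after its value was seen. Its mean log2 CPM was 4.68 in the warm libraries and 4.69 in the torpid ones.

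**Figure D2:**
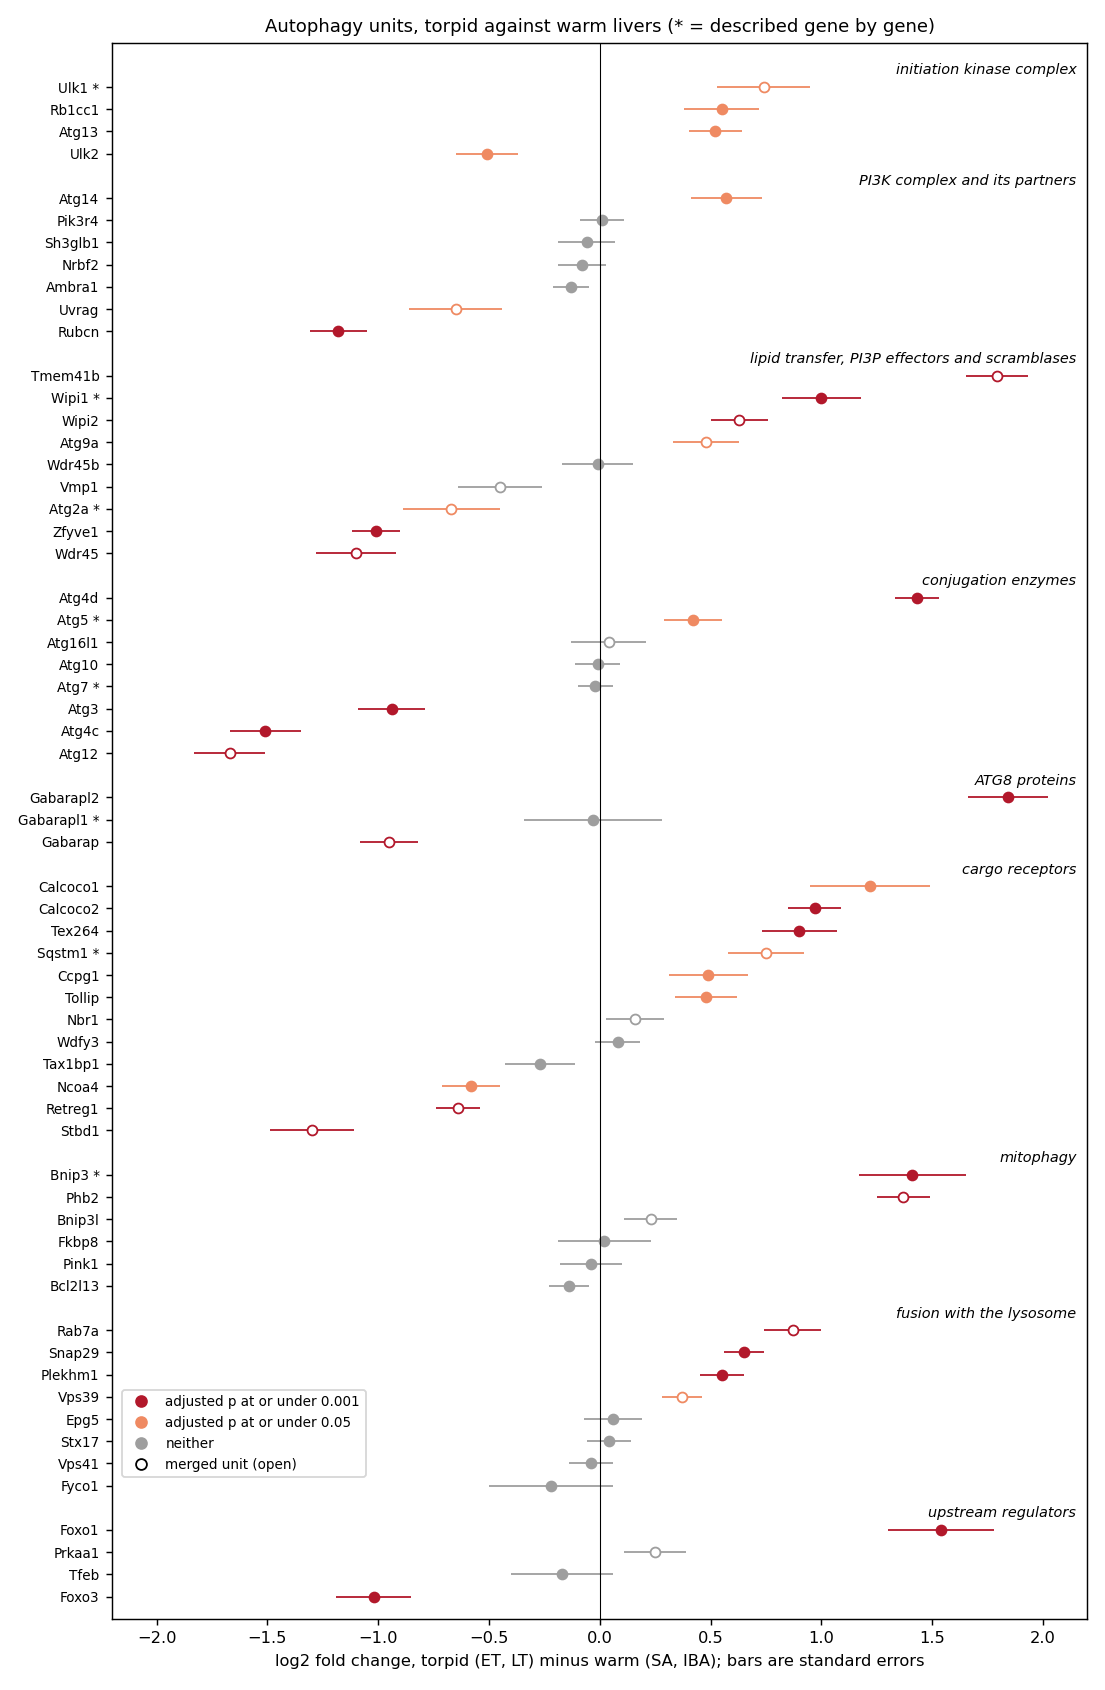
Log2 fold change of torpid (ET, LT) over warm (SA, IBA) livers for 61 of the 62 units that hold an autophagy gene of the list, by step of the pathway, with standard errors as bars, filled points for single-gene units and open points for merged ones. Differences on both sides of 0 occur in 7 of the 9 groups at an adjusted p of 0.05, and the called units of the mitophagy and fusion groups all lie above 0.

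Atg5, which joins Atg12 to form part of the machinery that attaches ATG8 proteins to lipid, lies at Itri8:98471099-98610176 on the minus strand. It read 241, 264 and 239 CPM in SA, 290, 264 and 243 in IBA, 283, 259 and 406 in Ent, 296, 389 and 344 in ET and 392 and 299 in LT. The lowest torpid library, at 296, lay just above the highest warm one, at 290. Atg5 rose by 0.42 ± 0.13 (SE) on the log2 scale from warm to torpid (adjusted p = 0.0126), past 0.05 only. Without LT replicate 1 the difference was 0.32, with an adjusted p of 0.0803.

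Atg7 lies at Itri19:16730972-16970992 on the plus strand, the longest of the single-gene units described gene by gene, at 240.0 kb. It read 169, 188 and 162 CPM in SA, 217, 187 and 213 in IBA, 183, 176 and 189 in Ent, 182, 167 and 177 in ET and 198 and 195 in LT. The highest library was 1.34 times the lowest, and torpid and warm libraries overlapped. The log2 difference between torpid and warm was -0.02 ± 0.08 (SE), and its 95% interval, -0.19 to 0.15, leaves a narrower band than for any of the other 7 genes (adjusted p = 0.804).

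Of 8 units of the conjugation machinery around Atg5 and Atg7, 4 were called at 0.001 (1 higher, 3 lower) and 5 at 0.05 (2 higher, 3 lower). Atg4c and Atg4d encode 2 of the proteases that trim ATG8 proteins and release them from the membrane. Atg4d read 57.1, 49.8 and 55.8 CPM in SA, 43.5, 53.9 and 46.3 in IBA, 86.6, 90.7 and 81.1 in Ent, 154, 121 and 129 in ET and 131 and 148 in LT, whereas Atg4c read 74.5, 56.9 and 75.9 in SA, 104, 84.7 and 91.5 in IBA, 59.0, 59.4 and 62.7 in Ent, 20.9, 37.1 and 31.1 in ET and 22.4 and 31.2 in LT. Both separated every torpid from every warm library, in opposite directions. Atg4d rose 2.69-fold (adjusted p = 3.1e-07) and Atg4c fell 2.85-fold (adjusted p = 5e-06). Per kilobase of unit within a library, Atg4d read 1.42 to 2.96 times Atg4c in the warm livers, 4.38 to 5.17 times in Ent and 11.1 to 24.9 times in the torpid livers. This ratio, corrected for the length of the units, was chosen after the values were seen and was not tested.

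Atg3, the enzyme that passes ATG8 proteins to lipid, fell from 28.4 to 37.0 CPM in the warm libraries to 14.3 to 23.0 in the torpid ones (log2 fold change -0.94 ± 0.15 SE, adjusted p = 0.00016). Atg12, the partner of Atg5, shares a unit with Cdo1, which encodes an enzyme of cysteine breakdown, and that unit read 379 to 592 CPM in the warm libraries, 360 to 510 in Ent and 124 to 178 in the torpid ones. It fell by 1.67 ± 0.16 on the log2 scale (adjusted p = 3e-06), and its reads cannot be divided between the genes.

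Gabarapl1 lies at Itri4:97219929-97240821 on the minus strand. It read 241, 64.9 and 224 CPM in SA, 196, 165 and 157 in IBA, 114, 146 and 192 in Ent, 209, 104 and 174 in ET and 228 and 131 in LT. SA replicate 2 was the lowest library by far, and the states overlapped throughout. The log2 difference between torpid and warm was -0.03 ± 0.31 (SE), with a 95% interval of -0.70 to 0.63 (adjusted p = 0.927), so that these libraries do not exclude a change within that interval.

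Map1lc3b had no unit. The units that hold Gabarapl2 and Gabarap, the other ATG8 genes with a unit, moved in opposite directions, but that of Gabarap is merged and its reads cannot be given to Gabarap alone. Gabarapl2 read 38.6, 24.5 and 24.6 CPM in SA, 25.9, 23.0 and 28.6 in IBA, 28.5, 43.8 and 49.1 in Ent, 101, 81.3 and 97.2 in ET and 122 and 85.9 in LT. Its torpid libraries all lay above its warm ones, and it rose 3.59-fold (log2 fold change 1.84 ± 0.18 SE, adjusted p = 2.5e-06). The unit with Gabarap, merged with Dvl2, Phf23, Ctdnep1 and other genes, fell from 141 to 177 CPM in the warm libraries to 71.0 to 92.8 in the torpid ones (log2 fold change -0.95 ± 0.13 SE, adjusted p = 2.9e-05). The ratio of Gabarapl2 to Gabarapl1 per kilobase of unit within a library was 0.143 to 0.491 in the warm livers, 0.327 to 0.391 in Ent and 0.633 to 1.02 in the torpid ones. It was also chosen after the values were seen and not tested.

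**Figure D3:**
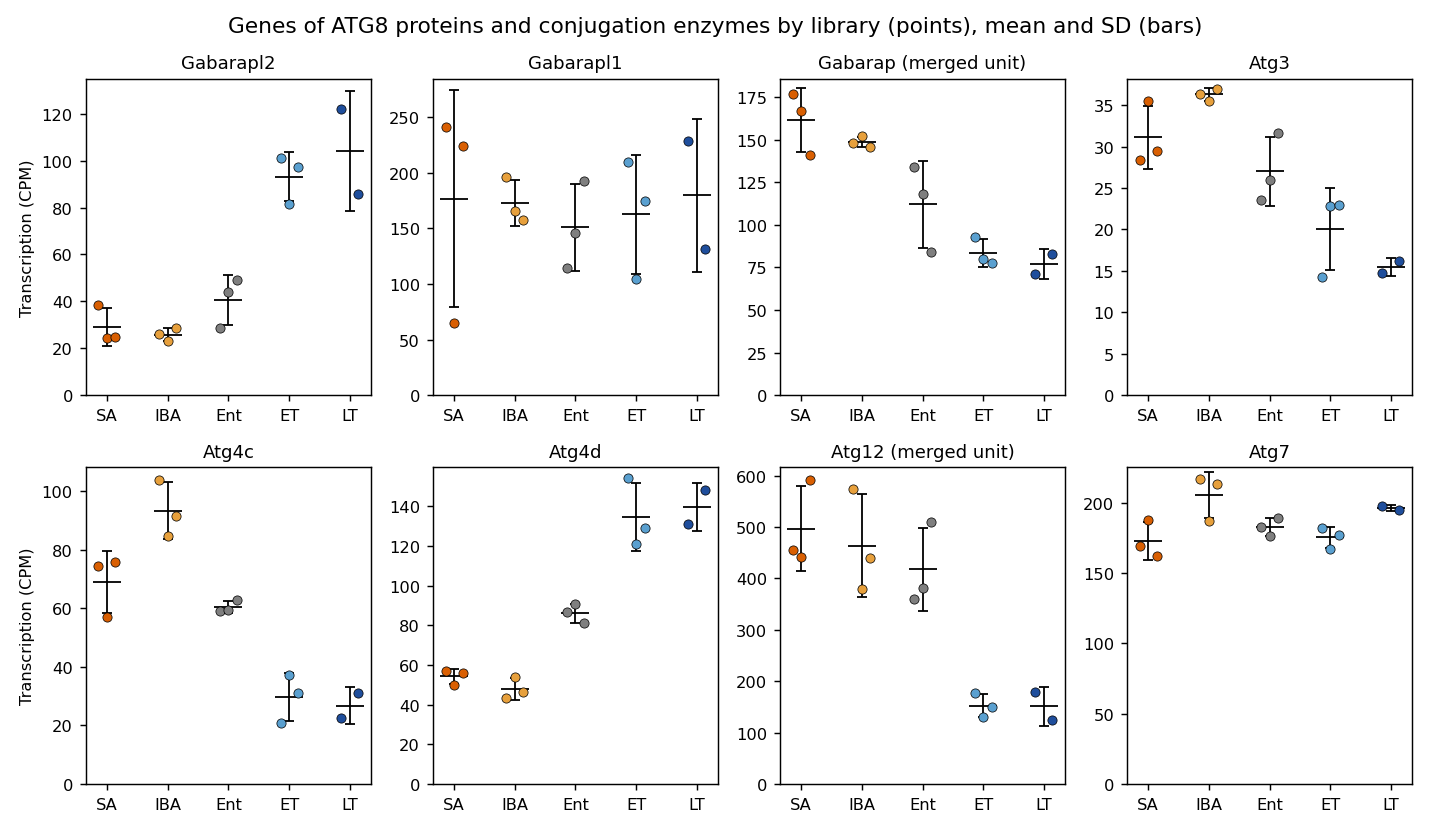
Transcription (CPM, linear axes from 0) of genes for ATG8 proteins and conjugation enzymes in each library (points) by state, with the mean and SD of each state (bars). Gabarapl2 and Atg4d are higher, and Atg4c, Atg3 and the merged units with Gabarap and Atg12 are lower, in every torpid library than in every warm one, while Gabarapl1 and Atg7 overlap.

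Sqstm1, known as p62, binds ubiquitinated cargo and ATG8. Its unit, at Itri1:119720848-119753788 on the minus strand, also carries an unnamed gene, G1976. It read 354, 255 and 384 CPM in SA, 352, 353 and 340 in IBA, 264, 389 and 252 in Ent, 501, 321 and 561 in ET and 736 and 682 in LT. Both LT libraries lay above all others, and ET replicate 2 lay within the warm range, so that torpid and warm libraries overlapped. The unit rose by 0.75 ± 0.17 (SE) on the log2 scale from warm to torpid (adjusted p = 0.0016), past 0.05 only by edgeR and past 0.001 by DESeq2 (adjusted p = 4.6e-05). The nearest upstream unit on the same strand, which merges Maml1, Canx and an unnamed gene 42.9 kb away, fell by 0.30 (adjusted p = 0.042).

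Of 12 units of cargo receptors, 4 were called at 0.001 (2 higher, 2 lower) and 9 at 0.05 (6 higher, 3 lower). Calcoco2, a receptor for bacteria and damaged mitochondria, rose from 86.1 to 122 CPM in the warm libraries to 207 to 242 in the torpid ones (1.96-fold, adjusted p = 1.2e-05). Tex264, a receptor for the endoplasmic reticulum, rose 1.87-fold (adjusted p = 0.00044), with its lowest values in Ent, at 12 to 13.1 CPM, against 13.6 to 27.2 in the warm and 25.1 to 54.4 in the torpid libraries. Its nearest upstream unit on the same strand, Rad54l2, was 7.64 kb away and had a log2 difference of 0.19 between torpid and warm (adjusted p = 0.13). The merged units with Retreg1, another receptor for the endoplasmic reticulum, and with Stbd1, which binds glycogen, fell by 0.64 and 1.30 on the log2 scale (adjusted p = 0.00014 and 5.9e-05). The unit with Retreg1 averaged 371 CPM in SA, 217 in IBA, 225 in Ent, 165 in ET and 200 in LT. Ncoa4, the receptor for the iron store ferritin, fell by 0.58 at 0.05 (adjusted p = 0.002). Its torpid libraries (43.6 to 80.3 CPM) overlapped the warm ones (75.5 to 121), and from LT to IBA its log2 difference was 0.16 (adjusted p = 0.519).

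Bnip3, a receptor on the outer mitochondrial membrane that marks mitochondria for autophagy, lies at Itri1:7101362-7130240 on the plus strand. It read 190, 124 and 170 CPM in SA, 131, 172 and 146 in IBA, 221, 205 and 123 in Ent, 650, 233 and 374 in ET and 426 and 386 in LT. All 5 torpid libraries lay above all 9 others, and ET replicate 1 read 2.79 times ET replicate 2. The torpid level was 2.65-fold the warm one, a log2 difference of 1.41 ± 0.24 (SE, 95% interval 0.89 to 1.93, adjusted p = 0.00022). Without ET replicate 1 the difference was 1.18 (adjusted p = 0.00023), and without LT replicate 1 it was 1.37 and no longer past 0.001 (adjusted p = 0.0013). Bnip3 rose between Ent and ET, by 1.20 ± 0.32 on the log2 scale (adjusted p = 0.0154, past 0.05 only), and the mean of Ent lay 15.3% of the way from the warm to the torpid mean of log2 CPM. Its log2 difference between IBA and Ent was 0.29 (95% interval -0.40 to 0.98, adjusted p = 0.568). Whether the timing of Bnip3 and Wipi1 differs was not tested. The nearest upstream unit on the same strand, Echs1, was 1026 kb away and rose by 0.84 (adjusted p = 0.00073).

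Of 7 units of mitophagy genes, 3 (42.9%) were called at 0.001, and the same number at 0.05, against 36.3% and 64.5% of all units. These shares were near or below those of all units. All 3 were higher in torpor, and the direction of so few calls was not tested. Beside Bnip3 they include a unit merging Phb2, a receptor on the inner mitochondrial membrane, with the phospholipid enzyme gene Lpcat3. That unit read 331 to 443 CPM in the warm libraries, 770 to 933 in Ent and 874 to 1302 in the torpid ones, and rose 2.58-fold from warm to torpid (adjusted p = 1.7e-06). Of 8 units for fusion with the lysosome, 3 (37.5%) were called at 0.001 and 4 (50.0%) at 0.05, all higher, shares near or below those of all units. Snap29, a membrane fusion protein of the autophagosome, rose 1.57-fold (adjusted p = 4.1e-05), Plekhm1, an adaptor on the lysosome, 1.47-fold (adjusted p = 0.00035), and a merged unit with Rab7a, the small GTPase of late endosomes and lysosomes, 1.83-fold (adjusted p = 7.8e-05).

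Of 4 units of upstream regulators, 2 were called at 0.001, in opposite directions. Foxo1 and Foxo3 encode related transcription factors that activate genes of autophagy. Foxo1 read 512, 989 and 342 CPM in SA, 446, 459 and 484 in IBA, 998, 775 and 1205 in Ent, 1827, 1139 and 1666 in ET and 1748 and 1370 in LT, and rose 2.91-fold (adjusted p = 0.00012). Foxo3 read 1838, 1660 and 1540 in SA, 1033, 762 and 746 in IBA, 1037, 652 and 754 in Ent, 716, 476 and 631 in ET and 650 and 486 in LT, and fell 2.03-fold (adjusted p = 0.00016). Torpid and warm libraries overlapped for neither, and SA replicate 2 was the highest warm library for Foxo1. Foxo3 fell already from SA to IBA, by 0.99 on the log2 scale (adjusted p = 0.0203, past 0.05 only). From LT to IBA the log2 difference of Foxo3 was 0.58 (adjusted p = 0.0686), past neither threshold. The nearest unit upstream of Foxo1 on the same strand, Mrps31, was 32.8 kb away and rose by 0.65 from warm to torpid (adjusted p = 0.0009).

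Over the whole list of 80 autophagy genes, 62 had a unit, 42 of their own and 20 merged. At 0.001, 24 of the 62 (38.7%) were called between torpid and warm livers, 14 higher and 10 lower, and at 0.05 39 (62.9%), 25 higher and 14 lower, shares near those of all units given above. Over all units 1177 were higher and 1116 lower at 0.001, and 1948 higher and 2132 lower at 0.05. The split of the list at 0.001 was 9 higher and 10 lower without SA replicate 3 or IBA replicate 3, 10 and 11 without ET replicate 3, 10 and 10 without IBA replicate 1, and 8 and 8 without LT replicate 1. The median log2 difference was 0.04 over the list and -0.04 over all 6324 units. With uniquely mapped reads as the library size, which moves the median of all units to 0.18, 22 units of the list were higher and 8 lower at 0.001. Among the 5 states together, 18 of the 62 (29.0%) passed 0.001, where 25.5% of all units did, and 33 (53.2%) passed 0.05, where 62.0% did. The torpid and warm libraries did not overlap for 24 of the 62 units (38.7%), 14 of them higher in torpor, where 40.5% of all units did not overlap.

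From SA to IBA, 0 of 8 genes were called at either threshold by edgeR, against 0.0158% of all units at 0.001 and 5.22% at 0.05, or by DESeq2, against 3.5% and 10.9%. Before adjustment 2 of 8 had p of 0.05 or less, as did 18 of the 62 units of the list and 22.0% of all units. In the list, 0 of 62 units passed 0.001 by edgeR (4 by DESeq2) and 5 (8.06%) passed 0.05, all lower in IBA. Among the 5 lower in IBA were Foxo3 (log2 fold change -0.99 ± 0.22 SE), Zfyve1 (-0.60 ± 0.15) and the merged units with Uvrag (-1.34 ± 0.28) and Retreg1 (-0.78 ± 0.14).

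On entering torpor, from IBA to Ent, Wipi1 alone of the 8 genes passed 0.05, where 16.1% of all units did. At 0.001, 0 of 8 passed by edgeR, where 0.0316% of all units did, and 1 by DESeq2, where 7.07% did. In the list, 9 of 62 units passed 0.05, 7 higher and 2 lower, and 0 passed 0.001 by edgeR (5 by DESeq2). Before adjustment, 18 of the 62 and 32.5% of all units had p of 0.05 or less. Beside Wipi1, Atg4d (log2 fold change 0.85 ± 0.13 SE), Foxo1 (1.10 ± 0.32), Calcoco2 (0.57 ± 0.15) and the merged units with Phb2 (1.06 ± 0.17) and Tmem41b (0.98 ± 0.19) were among those that rose. Rubcn (-0.58 ± 0.17) and Ncoa4 (-0.64 ± 0.18) fell.

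From Ent to ET, Bnip3 alone of the 8 genes passed 0.05, where 28.8% of all units did, and 0 of 8 passed 0.001 by edgeR, where 2.21% did, or by DESeq2, where 14.8% did. Before adjustment 2 of 8 had p of 0.05 or less, as did 40.5% of all units. In the list 1 of 62 units passed 0.001 (8 by DESeq2), the one with Atg12 and Cdo1 (log2 fold change -1.46 ± 0.21 SE, adjusted p = 0.0008), and 13 passed 0.05, 8 higher and 5 lower. Gabarapl2 rose by 1.21 ± 0.23 and Tex264 by 1.33 ± 0.23, and Atg4c fell by 1.03 ± 0.21. The call of the unit with Atg12 at 0.001 was lost without any 1 of 11 of the 14 libraries.

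From ET to LT, 0 of 8 genes and 0 of 62 units passed either threshold by edgeR, where 0.0% of all units passed 0.001 and 0.269% passed 0.05, or by DESeq2, where 0.585% and 1.83% did. Before adjustment 1 of 8 genes, 5 of 62 units and 8.7% of all units had p of 0.05 or less. The Sqstm1 unit had the largest log2 difference of the 8 genes, 0.62 (95% interval 0.09 to 1.15, adjusted p = 0.469).

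On rewarming, from LT to IBA, 4 of the 8 genes passed 0.05, all lower in IBA, where 49.8% of all units passed. At 0.001, 0 of 8 passed by edgeR, where 17.4% of all units did, and 3 by DESeq2, where 31.9% did. Bnip3 fell by 1.44 ± 0.35 (SE) on the log2 scale (adjusted p = 0.0048), Wipi1 by 1.13 ± 0.27 (adjusted p = 0.0041), and the units with Sqstm1 and Ulk1 by 1.02 ± 0.25 and 0.82 ± 0.32 (adjusted p = 0.0042 and 0.0453). The call of the Ulk1 unit was lost without any 1 of 9 of the 14 libraries. The unit with Atg2a had a log2 difference of 0.81 ± 0.33 (adjusted p = 0.0563). With season added to the model, the differences were -0.86 for Bnip3 (adjusted p = 0.162), -1.13 for Wipi1 (0.0387), -0.77 for Sqstm1 (0.1), -0.57 for Ulk1 (0.358), -0.70 for Atg5 (0.0397) and 1.25 for Atg2a (0.044).

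In the list, 13 of 62 units (21.0%) passed 0.001 between LT and IBA, 4 higher in IBA and 9 lower, and 29 (46.8%) passed 0.05, 8 higher and 21 lower. Over all units 17.4% passed 0.001, 489 higher and 613 lower, and 49.8% passed 0.05. Scaled to total counts, the list units called at 0.001 were 2 higher and 10 lower, and to uniquely mapped reads 2 higher and 11 lower. Gabarapl2 fell by 2.01 ± 0.26 (SE) on the log2 scale (adjusted p = 7.5e-05) and Atg4d by 1.54 ± 0.15 (adjusted p = 1.4e-05), whereas Atg4c rose by 1.80 ± 0.24 (adjusted p = 0.0001) and Rubcn by 1.18 ± 0.20 (adjusted p = 0.00044). Without LT replicate 1, 2 of the 62 units passed 0.001, and with season in the model 3 did. The comparison of torpid with warm livers and that of LT with IBA share their LT and IBA libraries. The steps of the torpor cycle start and end on the same IBA libraries. The LT to IBA difference thus follows from the steps before it and is no separate observation of a return.

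**Figure D4:**
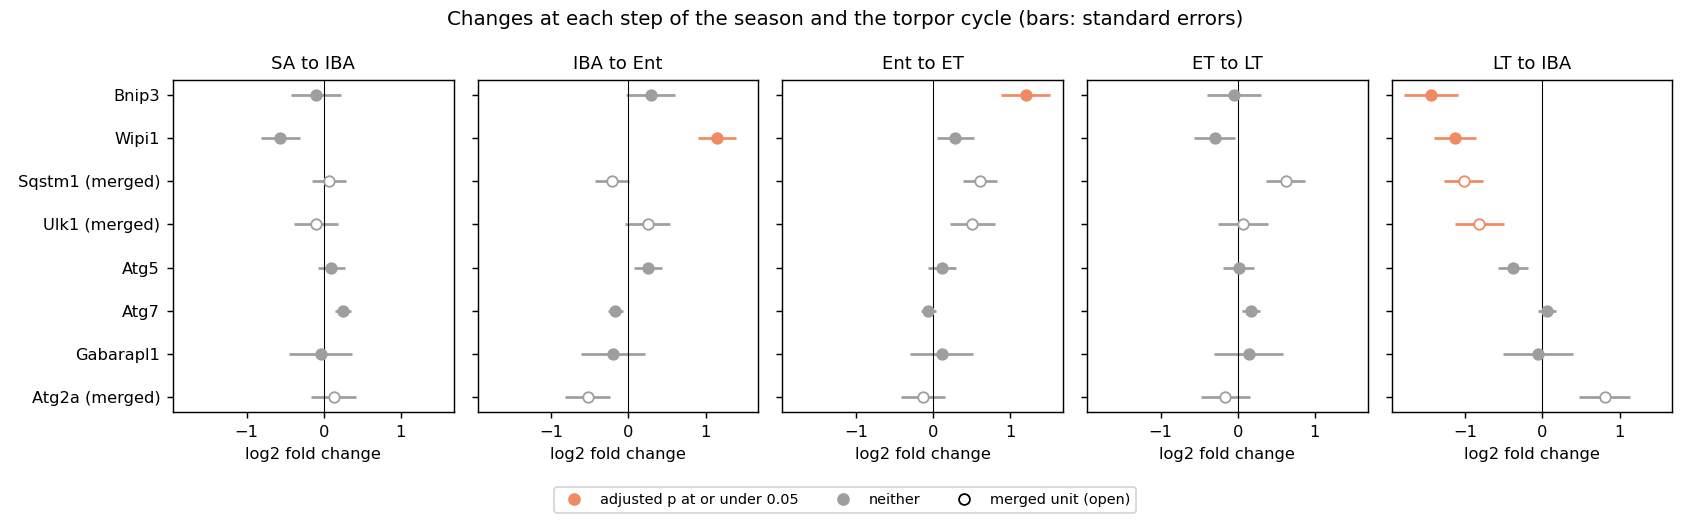
Log2 fold change (later over earlier state) of the 8 autophagy genes at each step from summer through the torpor cycle, with standard errors as bars, in colour where the adjusted p was at or under 0.05. Wipi1 differs at IBA to Ent (1.15) and Bnip3 at Ent to ET (1.20), and both are lower in IBA than in LT (-1.13 and -1.44). The IBA libraries are the same at the start and the end of the cycle, so the LT to IBA value follows from the other steps.

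Levels of different genes were compared per kilobase of unit, over the 5 genes with a unit of their own. In SA, Gabarapl1 stood at 8.46 ± 4.65 CPM per kb (SD, n = 3), Bnip3 at 5.57 ± 1.18, Wipi1 at 2.18 ± 0.382, Atg5 at 1.78 ± 0.0982 and Atg7 at 0.722 ± 0.0558. The ranges of mean ± SD overlapped between Gabarapl1 and Bnip3 and between Wipi1 and Atg5. The median single-gene unit stood at 2.12 CPM per kb in SA and 2.02 in LT, and Gabarapl1 was at the 93.9th percentile of these units in SA and Atg7 at the 8.82nd.

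In IBA the levels were 8.27 ± 0.983 CPM per kb for Gabarapl1, 5.19 ± 0.718 for Bnip3, 1.91 ± 0.166 for Atg5, 1.48 ± 0.247 for Wipi1 and 0.857 ± 0.0688 for Atg7, and no neighbouring ranges overlapped. In Ent, Gabarapl1 (7.20 ± 1.88) overlapped Bnip3 (6.34 ± 1.82), and Wipi1 (3.28 ± 0.516) overlapped Atg5 (2.27 ± 0.566). In ET, Bnip3 (14.5 ± 7.35) stood first and overlapped Gabarapl1 (7.77 ± 2.55). Gabarapl1 overlapped Wipi1 (3.99 ± 1.51), and Wipi1 overlapped Atg5 (2.47 ± 0.337). In LT, Bnip3 (14.1 ± 0.970, n = 2) stood apart from Gabarapl1 (8.59 ± 3.30), while Wipi1 (3.25 ± 0.382) overlapped Atg5 (2.48 ± 0.468). Bnip3 moved from the 87.8th percentile of single-gene units in SA to the 98.3rd in LT, Wipi1 from the 32.2nd in IBA to the 76.7th in ET, and Gabarapl1 stayed between the 91.8th and the 95th.

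**Figure D5:**
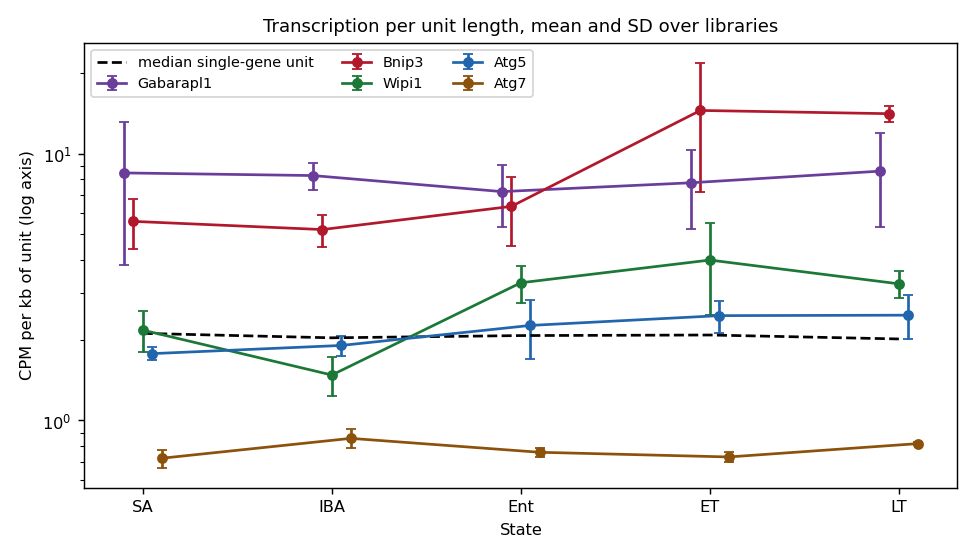
Transcription per kilobase of unit (CPM per kb, log axis) of the 5 autophagy genes with a unit of their own, as mean and SD over the libraries of each state, with the median of all single-gene units as a dashed line. Bnip3 passes from 5.57 in SA to 14.1 in LT, and Atg7 stays under the median of 2.02 to 2.12 in every state.

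Over the 14 libraries, Pearson's r of log2 CPM between the unit of Ulk1 and Bnip3 was 0.90, between the units of Sqstm1 and Bnip3 0.80, between Wipi1 and Bnip3 0.71, and between the unit of Atg2a and Atg5 -0.85. Gabarapl1 and Atg7 had r of 0.41 or less with each of the others. The single-gene units most like Bnip3 were Brf1 (r = 0.957), Csnk1d (0.954) and Pdrg1 (0.951), and those most like Wipi1 were POR_like (0.916), Glo1 (0.911) and Txndc5 (0.909). Atg5 was most like Rab2a (0.900), Qki (0.898) and Phf20l1 (0.897), Atg7 most like TNS3_like (0.852), Plekhm3 (0.825) and Nbas (0.812), and Gabarapl1 most like Brox (0.807), Mpdz (0.803) and Prpf18 (0.793). These values are descriptions over libraries that share states and scaling, and the units were picked as the highest among 4705.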

How the data were processed

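Nascent RNA from liver nuclei of 14 squirrels was analysed. Per the study's methods, the authors trimmed reads with cutadapt, mapped them to HiC_Itri_2 with BWA, extended gene annotations with fstitch segments, merged overlapping genes, dropped the first 500 nt of each unit and counted uniquely aligned reads with featureCounts. The authors deposited raw read counts per unit and library, without normalization. Versions and strand setting are not given in the sources used here, so antisense reads cannot be told apart. Merged units mix genes. Values of 1 list gene are counted but not reported here.

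The counts were fitted with edgeR 4.0.16 (TMM, quasi-likelihood, state means, no covariate) in R 4.3.3, on all 6324 units and without a filter. Standard errors and 95% intervals were derived from the F statistic and its degrees of freedom. The fits were tested on simulated data into which known changes had been put. Python 3.11.15 and pandas 2.3.3 made the summaries. Log2 CPM used a prior count of 2. RefSeq gene symbols served only to check names.

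The genes and lists were chosen with earlier results of these data known. Every one of the 10 genes with a unit is named, then list genes at an adjusted p of 0.05 or less among the 5 states, and merged units are named as such. For each of the 5 genes on a single-gene unit, the 3 single-gene units with the highest Pearson's r are named. The other settings were limma-voom (limma 3.58.1), DESeq2 1.42.0, RLE, upper-quartile, total-count and uniquely mapped scaling, a minimum of 10 counts, single-gene units only, a block for replicate number, a covariate for season, a threshold of 0.05 and each library left out in turn.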

Additional observations from a re-analysis of the deposited data

How the results depend on the processing

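With a threshold of 0.05 the list counts were 33 of 62 units among the 5 states, 39 for torpid against warm, 5, 9 and 13 for SA to IBA, IBA to Ent and Ent to ET, and 29 for LT to IBA. DESeq2 called 29 among the 5 states, 4, 5 and 8 in the first 3 steps and 25 for LT to IBA. Single-gene units alone gave 11 among the 5 states and 0 for Ent to ET, uniquely mapped scaling gave 3 for Ent to ET, and season as a covariate, which could be fitted only for steps without ET, gave 3 for LT to IBA. Leaving out 1 library at a time gave 12 to 18 among the 5 states, 16 to 25 for torpid against warm, 0 to 1 for Ent to ET and 2 to 17 for LT to IBA, with the lowest count of the last without LT replicate 1. The causes were not tested. The direction held in every alternative for the torpid difference of Ulk1, Atg2a, Wipi1, Atg5, Sqstm1 and Bnip3. It turned for Atg7, whose torpid log2 difference became 0.09 with total counts, 0.20 with uniquely mapped reads and 0.00 with single-gene units alone (0.01 and 0.00 without SA replicate 2 and Ent replicate 2, over a range of -0.06 to 0.01), and whose LT to IBA difference became -0.04 and -0.12 under the first 2 of these scalings. It turned for Gabarapl1, whose torpid difference became 0.01 with limma-voom, 0.08 with total counts and 0.18 with uniquely mapped reads (-0.26 to 0.14 with 1 library left out, above 0 without SA replicate 1 at 0.11, SA replicate 3 at 0.07, IBA replicate 1 at 0.02, ET replicate 2 at 0.08 and LT replicate 3 at 0.14), and whose LT to IBA difference became 0.03 with season (-0.40 to 0.40 with 1 library left out, 0.01 without IBA replicate 3). The adjusted p of the torpid difference of Wipi1 lay between 0.0012 and 0.0026 without SA replicate 3, IBA replicate 1, IBA replicate 3 or either LT library, and that of Bnip3 was 0.0013 without LT replicate 1.

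Samples with the same replicate number did not deviate together: of 26 same-numbered pairs 6 had a correlation of deviations above 0.1, over a range of -0.26 to 0.23, so the numbers do not pair the animals. With the replicate number as a block, 12 units were called among the 5 states, 21 for torpid against warm, 0 for Ent to ET and 9 for LT to IBA, the Gabarapl1 difference from LT to IBA became 0.20, and Wipi1 had an adjusted p of 0.0012 for torpid against warm.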
